A study of Homo sapiens with 20 samples.

Results

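Fibronectin (FN1), thrombospondin 1 (THBS1), transforming growth factor beta induced protein (TGFBI) and tenascin C (TNC) are 4 secreted proteins of the extracellular matrix, and their RNA was followed in corneal epithelial cells given the matrix protein SPARC. They were taken by gene name from a count table of 60671 gene identifiers, where each name stood on 1 identifier, and all 4 were among the 22938 genes with enough counts to test. The cells were hTCEpi, a human corneal epithelial line immortalized with telomerase, and they received recombinant human SPARC in keratinocyte medium for 24 h. The doses were 0 µg/ml (control), 0.05 µg/ml (SPARC 0.05), 0.5 µg/ml (SPARC 0.5) and 5 µg/ml (SPARC 5), with 5 replicates each and 20 samples in all. Every group, control included, was the same line in the same medium, so the dose is the only labelled difference. All results come from 1 immortalized line grown without stroma.

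Fibronectin is a dimeric glycoprotein that cells assemble into fibrils through integrins, and it forms the provisional matrix over which epithelium migrates after a corneal wound. Thrombospondin 1 is a matricellular protein, which means that it signals from the matrix more than it builds it. It binds CD36, CD47 and integrins, and it can release latent TGF-beta from its complex. TGFBI, also called keratoepithelin, is named for its induction by TGF-beta, binds collagens and integrins, and is the protein that forms deposits in inherited corneal dystrophies. Tenascin C is a large multi-armed glycoprotein that is produced at wound edges and modifies adhesion to fibronectin. SPARC itself is a matricellular protein that binds collagen.

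At SPARC 5 the RNA of 4 of 4 members rose against control, where 7.04% of the genes tested rose and 4.58% fell. Calls were more frequent among abundant genes. Of 203 with a mean of at least 500 counts-per-million over the 4 groups, 61 rose, FN1, THBS1 and TGFBI among them. That mean includes SPARC 5, and TGFBI reached 500 only through its own rise. At SPARC 0.5 FN1, THBS1 and TGFBI rose, which is 3 of 4, where 1.36% of genes rose and 0.894% fell. At SPARC 0.05 FN1 rose, 1 of 4, where 0.187% of genes rose. The rise at SPARC 5 was 3.69-fold for FN1, 2.63-fold for THBS1, 2.09-fold for TGFBI and 1.38-fold for TNC. FN1 rose more than each of the other genes at every dose when the genes were compared within libraries. RNA was measured in bulk, so a change in the number of cells that make a transcript and a change in the RNA per cell cannot be told apart.

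The 20 libraries held between 31955358 and 50112286 counts. The first principal component carried 8.31% of the variance and the second 6.58%, and on the second SPARC 5 replicates 2 and 5 lay at opposite ends, at 48.2 and −40.1. Each member kept its direction and its call at SPARC 5 without these 2 samples. The markers of corneal and basal epithelium summed to between 14250 and 15077 counts-per-million (CPM) in control libraries and between 15098 and 15662 CPM at SPARC 5, led by the basal keratin KRT5 with a control mean of 11321 CPM. KRT5 had a mean of 11322 CPM at SPARC 5 and did not pass, while other markers of that list moved apart. KRT15 fell by 1.11, ALDH3A1 by 0.85 and EPCAM by 0.32 on the log2 scale at SPARC 5, and KRT14 rose by 0.49, COL17A1 by 0.35 and ITGB4 by 0.27, all of which passed. The corneal differentiation keratin KRT12 had at most 4 counts in any library and KRT3 a control mean of 1.46 CPM, so the defining keratins of mature corneal epithelium were nearly absent. Of 10 fibroblast and keratocyte markers, 3 had enough counts to test, KERA was at 0 in all 20 libraries, and LUM and PDGFRA had at most 4 and 1 counts. The 3 were COL1A1, with 114 to 257 counts in a library, THY1 with 12 to 79 and PDGFRB with 0 to 14. That list summed to between 5.50 and 8.17 CPM in control and between 5.96 and 9.88 CPM at SPARC 5. Marker sums for vascular endothelium, leukocytes and melanocytes were at most 2.01, 1.87 and 3.95 CPM in any library.

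In GRCh38 (GENCODE release 29), FN1 (ENSG00000115414) lies on the minus strand at chr2:215360440-215436172, and TNC (ENSG00000041982) on the minus strand at chr9:115019578-115118257. THBS1 (ENSG00000137801) lies on the plus strand at chr15:39581079-39599466, and TGFBI (ENSG00000120708) on the plus strand at chr5:136028895-136063818. The strand setting of the counting is not given in the sources used here. The span of THBS1 is shared with FSIP1 and the non-coding genes AC037198.1 and AC037198.2. The first 2 of these had at most 57 and 1220 counts in a library, against at least 102773 for THBS1. TNC shares its span with DELEC1 (DEC1 in GENCODE 29), which had at most 10 counts. Each member was counted as 1 gene, so splice forms such as those of FN1 and TNC are summed.

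The sequence before each start is shown because the 4 genes rose together at the highest dose. RefSeq promoter windows of GRCh38.p14 were found for all 4, and the 250 bases before the RefSeq start were searched on both strands. The stretches below are written 5′ to 3′ on the strand of the gene and stop where the GENCODE gene begins. They are chr2:215436173-215436318 (minus strand) for FN1, chr15:39580879-39581078 (plus strand) for THBS1, chr5:136028738-136028894 (plus strand) for TGFBI and chr9:115118258-115118407 (minus strand) for TNC. Capitals mark whole matches to the GC box GGGCGG, the short SMAD box CAGAC or the TEAD motif GGAATG, on either strand, and the TGFBI stretch holds none whole.
FN1: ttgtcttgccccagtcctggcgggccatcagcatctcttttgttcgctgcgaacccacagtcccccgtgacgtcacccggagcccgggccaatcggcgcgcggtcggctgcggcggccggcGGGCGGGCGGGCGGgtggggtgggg
THBS1: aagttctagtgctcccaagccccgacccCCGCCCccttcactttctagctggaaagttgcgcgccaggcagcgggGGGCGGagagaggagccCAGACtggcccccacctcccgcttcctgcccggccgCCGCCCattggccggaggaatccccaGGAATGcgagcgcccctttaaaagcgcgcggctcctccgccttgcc
TGFBI: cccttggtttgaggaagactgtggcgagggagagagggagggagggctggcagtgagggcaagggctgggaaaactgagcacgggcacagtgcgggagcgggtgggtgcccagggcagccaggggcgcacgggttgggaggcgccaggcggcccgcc
TNC: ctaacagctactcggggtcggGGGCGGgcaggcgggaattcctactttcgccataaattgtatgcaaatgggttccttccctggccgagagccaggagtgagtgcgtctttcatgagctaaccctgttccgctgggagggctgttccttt
GGGCGG was the only searched motif found in all 4 windows, with 6 matches for FN1, 4 for THBS1, 3 for TGFBI and 1 for TNC, and neighbouring matches could share bases. It stood in 42.6% of 35116 RefSeq promoters of the same length. CAGAC stood in the windows of THBS1 and TNC, where the TNC match lies outside the stretch shown, and in 38% of all promoters. GGAATG stood in that of THBS1 and in 11.9% of all promoters. The AP-1 motif TGANTCA, the SMAD palindrome GTCTAGAC and the TATA box TATAAA were in none of the 4 windows and in 6.57%, 0.182% and 10.7% of all promoters. The windows were 76.4% G and C for FN1, 69.6% for THBS1, 72.8% for TGFBI and 54.8% for TNC, against a median of 58% over all promoters. A match of letters is a description of the sequence and no binding was measured.

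FN1, the fibril-forming protein, was the member with the largest fold change at every dose. In control replicates 1 to 5 its level was 643, 656, 683, 692 and 767 CPM. At SPARC 0.05 it was 769, 903, 902, 954 and 898 CPM. All 5 of these lay above all 5 controls, although replicate 1 cleared the highest control by only a few CPM. At SPARC 0.5 the level was 1055, 1237, 1214, 1173 and 1198 CPM, and at SPARC 5 it was 2499, 2517, 2609, 2654 and 2422 CPM. No group overlapped the group below it, and replicate 1 was the lowest in control and at both middle doses. Group means were 688 ± 48.3, 885 ± 69.0, 1175 ± 71.3 and 2540 ± 92.3 CPM (SD, n = 5 each). These gave log2 fold changes against control of 0.36 ± 0.06 (SE), 0.77 ± 0.06 and 1.88 ± 0.06, with adjusted p = 0.0114, 6.38e-07 and 9.53e-14 by edgeR's quasi-likelihood test with Benjamini-Hochberg adjustment over all genes tested.

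The call for FN1 at SPARC 0.05 was the least firm of the calls on these genes. It was lost when only the control and SPARC 0.05 samples entered the edgeR fit (log2 0.36, adjusted p = 0.0895) and with offsets for GC content and length (log2 0.31, adjusted p = 0.0829). In each library, the difference of each gene's log2 level from its mean over the 20 libraries was correlated with GC content. That correlation ran from −0.01 to 0.27 in control and from −0.08 to 0.01 at SPARC 0.05. The part of GC content in the result was not tested beyond these offsets. Leaving out 1 sample at a time kept the call, with an adjusted p of at most 0.0465. From SPARC 0.05 to SPARC 0.5 FN1 rose by a further 0.41 ± 0.06 on the log2 scale (adjusted p = 0.00617, edgeR), and from SPARC 0.5 to SPARC 5 by 1.11 ± 0.06 (adjusted p = 3.95e-10, edgeR). The labels do not say whether replicates were separate cultures, so every p-value here measures the spread between these samples, which may be technical.

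**Figure D1:**
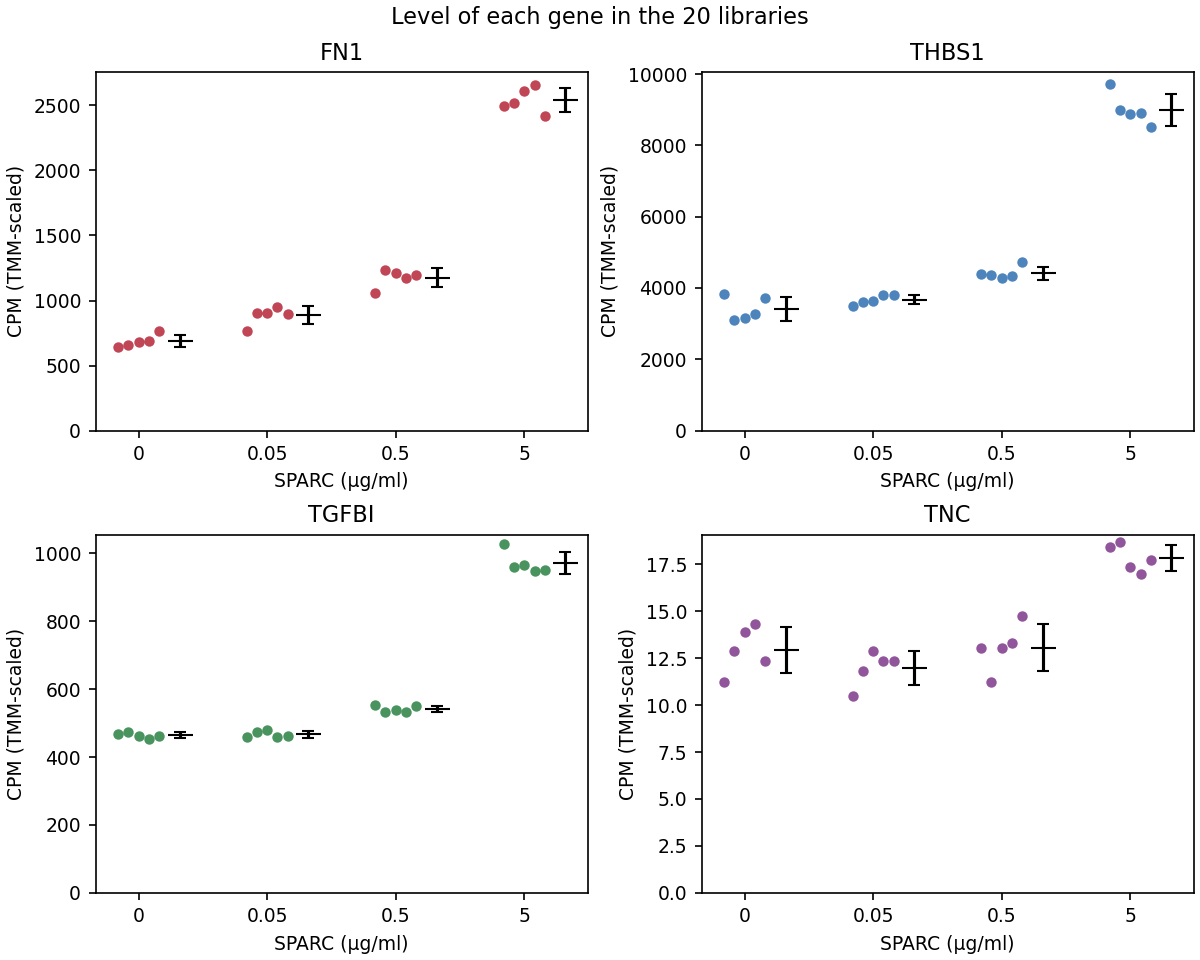
Level of each gene in counts-per-million (vertical axis, 1 panel per gene, each with its own scale) at each SPARC dose in µg/ml (horizontal axis). Points are the 5 replicates in order and black bars the mean ± SD: FN1 climbs at every step from 688 to 2540 CPM, while TNC stays near 13 CPM up to 0.5 µg/ml and reaches 17.8 CPM at 5 µg/ml.

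THBS1, the matricellular TGF-beta activator, was by far the most abundant of the 4 transcripts. Control replicates 1 to 5 held 3824, 3104, 3155, 3276 and 3726 CPM. At SPARC 0.05 they held 3508, 3617, 3640.4, 3813 and 3798 CPM. These groups overlapped, since control replicates 1 and 5 were as high as the treated samples. SPARC 0.5 samples held 4386, 4353, 4276, 4330.4 and 4728 CPM, and SPARC 5 samples 9719, 8983, 8868, 8896 and 8520 CPM. All SPARC 0.5 samples lay above all samples of the 2 lower groups, and all SPARC 5 samples lay far above those. Group means were 3417 ± 334, 3675 ± 129, 4415 ± 180 and 8997 ± 440.4 CPM (SD, n = 5 each). THBS1 ranked between the 12th and 16th most counted gene in control libraries and 2nd or 3rd at SPARC 5.

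The log2 fold change of THBS1 was 0.11 ± 0.05 at SPARC 0.05, which did not pass (adjusted p = 0.603, edgeR). It was 0.37 ± 0.05 at SPARC 0.5 and 1.40 ± 0.06 at SPARC 5 (adjusted p = 0.00139 and 2.98e-12, edgeR). Between SPARC 0.05 and SPARC 0.5 the difference was 0.26 ± 0.05 on the log2 scale and did not pass (adjusted p = 0.0767, edgeR), although the groups did not overlap. It passed when only those 2 groups were fitted with edgeR (adjusted p = 2.94e-05), by limma voom (adjusted p = 0.000864) and by DESeq2 (adjusted p = 0.00175). From SPARC 0.5 to SPARC 5 it rose by 1.03 ± 0.06 (adjusted p = 5.80e-10, edgeR).

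TGFBI, the keratoepithelin, had the narrowest spread between replicates. Its control level was 469, 475, 462, 454 and 461 CPM in replicates 1 to 5, and at SPARC 0.05 it was 458, 475, 479.9, 459.8 and 463 CPM. These groups overlapped almost wholly. At SPARC 0.5 it was 553, 533, 538, 533 and 552 CPM, and at SPARC 5 it was 1027, 959, 967, 948 and 953 CPM. Each of these groups lay above all samples of the lower doses. Means were 464 ± 8.17, 467 ± 9.71, 542 ± 9.86 and 971 ± 32.3 CPM (SD, n = 5 each), a coefficient of variation of 1.76% in control. The log2 fold change was 0.01 ± 0.02 at SPARC 0.05 (adjusted p = 0.955), 0.22 ± 0.02 at SPARC 0.5 (adjusted p = 3.65e-12) and 1.06 ± 0.02 at SPARC 5 (adjusted p = 9.29e-62, all edgeR).

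At SPARC 5 TGFBI had the smallest p of all 22938 genes tested, with a fold change smaller than that of FN1, which ranked 107th by p, or THBS1, which ranked 142nd. The robust edgeR fit moderated the spread of FN1 and THBS1 little towards that of other genes, with prior degrees of freedom of 0.308 against 75.4 for TGFBI and TNC, and 2266 genes in all had fewer than 75.4. The estimated biological coefficient of variation was 6.33% for FN1, 6.01% for THBS1, 3.06% for TGFBI and 7.24% for TNC. In the authors' deposited table of SPARC 5 against control, FN1 ranked 1st by p, TGFBI 2nd and THBS1 3rd of 16121 genes.

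TNC, the adhesion-modifying protein, had the lowest level of the 4. Its control level was 11.3, 12.9, 13.9, 14.3 and 12.4 CPM in replicates 1 to 5, and the lowest control held 404 counts. At SPARC 0.05 the level was 10.5, 11.8, 12.9, 12.4 and 12.4 CPM, and at SPARC 0.5 it was 13.0, 11.2, 13.0, 13.3 and 14.8 CPM. All 3 groups overlapped. SPARC 5 samples held 18.4, 18.7, 17.4, 17.0 and 17.7 CPM, each above every sample of the other groups. Means were 13.0 ± 1.23, 12.0 ± 0.914, 13.1 ± 1.26 and 17.8 ± 0.71 CPM (SD, n = 5 each). The log2 fold change was −0.11 ± 0.08 at SPARC 0.05 and 0.01 ± 0.08 at SPARC 0.5, neither of which passed (adjusted p = 0.731 and 0.972, edgeR). It was 0.46 ± 0.08 at SPARC 5 (adjusted p = 2.63e-06, edgeR).

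Between neighbouring doses the members moved as follows. From SPARC 0.05 to SPARC 0.5 2 of 4 rose, FN1 and TGFBI, against 0.157% of genes, with a log2 difference of 0.21 ± 0.02 for TGFBI (adjusted p = 4.27e-11, edgeR). TNC differed by 0.12 ± 0.08 there and did not pass (adjusted p = 0.794, edgeR). From SPARC 0.5 to SPARC 5 4 of 4 rose against 3.31% of genes, with log2 differences of 0.84 ± 0.02 for TGFBI and 0.45 ± 0.08 for TNC (adjusted p = 3.58e-53 and 8.35e-06, edgeR). The treated samples all lay above the reference samples for 4, 3 and 1 members at SPARC 5, SPARC 0.5 and SPARC 0.05 against control, where this held for 4.8%, 1.71% and 0.95% of genes. It held for 3 members between SPARC 0.05 and SPARC 0.5 and for 4 between SPARC 0.5 and SPARC 5, against 0.876% and 3.19% of genes. The 3 comparisons with control share the same 5 control samples, and the members were known to move when they were chosen, so these shares set the scale and are no test.

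With scaling by library size alone, the members kept these calls, but the genes called at SPARC 5 turned from 1615 higher and 1050 lower into 999 higher and 2191 lower. At SPARC 0.5 the split turned from 312 higher and 205 lower into 165 and 412, and at SPARC 0.05 from 43 and 18 into 33 and 36. Between SPARC 0.05 and SPARC 0.5 it turned from 36 and 5 into 21 and 14, and from SPARC 0.5 to SPARC 5 from 759 and 341 into 562 and 660.

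**Figure D2:**
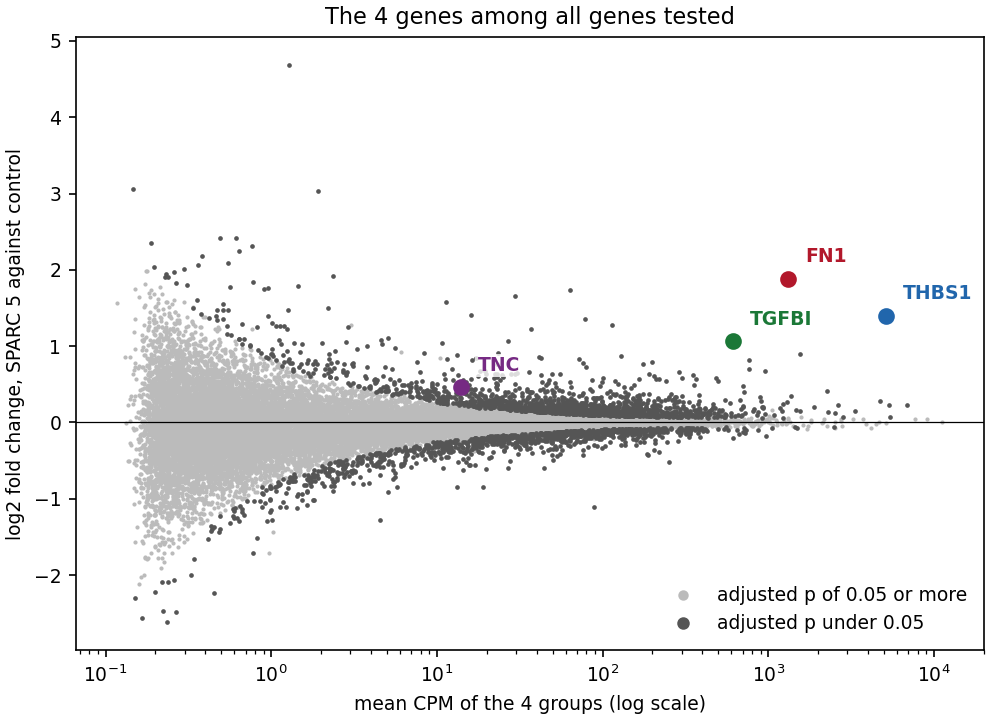
Mean level of each tested gene (horizontal log axis, counts-per-million) against its log2 fold change at SPARC 5 against control (vertical axis), with the 4 matrix genes marked and named. FN1, THBS1 and TGFBI lie at 1.88, 1.40 and 1.06, and TNC lies at 0.46. Apart from FN1 and THBS1, no gene averaging 500 CPM or more across the dose groups lies above TGFBI. TGFBI met that cut only through its own rise. Among all genes tested TGFBI ranked 218th by log2 change, with the less abundant PMEPA1 (1.74) and ITGB6 (1.35) among those above it.

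As a description with no test, the change at each dose can be set against each gene's own log2 change at SPARC 5. At SPARC 0.05 FN1 had gone 19.3% of it, THBS1 7.53%, TGFBI 0.785% and TNC −24.2%. At SPARC 0.5 these shares were 41.0% for FN1, 26.5% for THBS1, 20.9% for TGFBI and 2.75% for TNC. For all 4 genes the larger part of the log2 rise thus fell between SPARC 0.5 and SPARC 5. The shares of THBS1 and TGFBI at SPARC 0.05 and of TNC at both doses rest on differences from control that did not pass, and that of FN1 at SPARC 0.05 on the call that was lost in 2 fits.

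**Figure D3:**
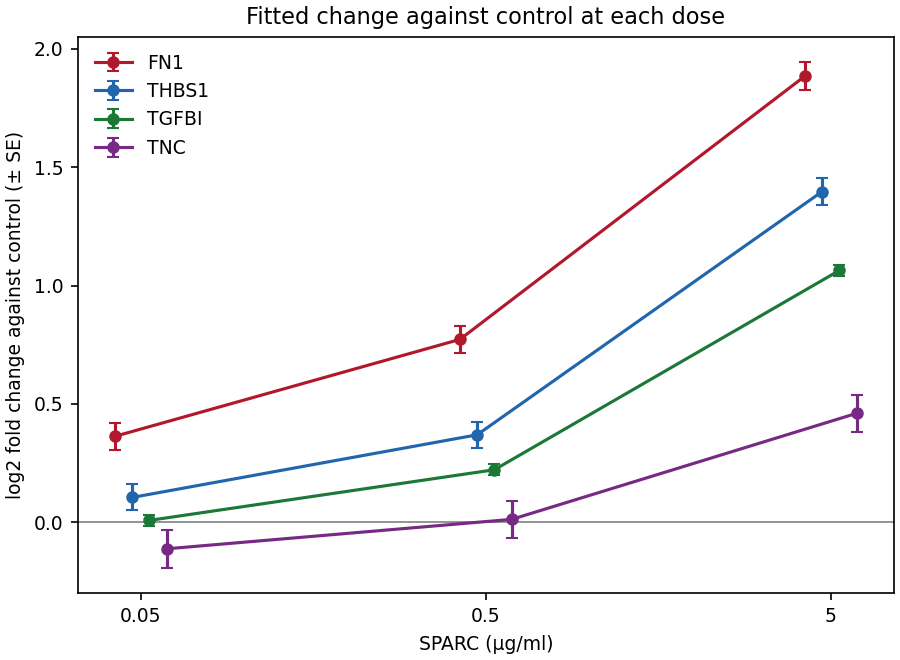
Fitted log2 fold change against control (vertical axis) at each SPARC dose (horizontal axis, µg/ml) for the 4 genes, with bars of 1 SE. FN1 lies above the others at each dose and ends at 1.88, and TNC lies near 0 until it reaches 0.46 at 5 µg/ml.

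Ratios between members within a library do not depend on how libraries are scaled, so they were used to test whether members changed unequally. The log2 ratio of FN1 to THBS1 was −2.31 ± 0.15 in control and −2.06 ± 0.08, −1.91 ± 0.11 and −1.82 ± 0.08 at the rising doses (SD, n = 5 each). Differences from control were 0.25, 0.40 and 0.49. For FN1 to TGFBI the differences were 0.35, 0.55 and 0.82, and for FN1 to TNC they were 0.47, 0.76 and 1.42. In all 9 of these comparisons FN1 gained on the other gene with p = 0.00794 by a 2-sided exact permutation test, which is the smallest p that 252 arrangements can give, and 0.0119 after Benjamini-Hochberg adjustment over the 18 ratio tests.

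The other ratios separated at SPARC 5. THBS1 gained 0.34 on TGFBI and 0.93 on TNC there, and TGFBI gained 0.60 on TNC, each on the log2 scale with exact permutation p = 0.00794 and adjusted p = 0.0119. At SPARC 0.5 THBS1 gained 0.15 on TGFBI (exact permutation p = 0.0873, adjusted 0.105) and 0.36 on TNC (exact permutation p = 0.0397, adjusted 0.0549), and TGFBI gained 0.21 on TNC (exact permutation p = 0.0556, adjusted 0.0714). None of these passed after adjustment. At SPARC 0.05 the 3 differences were 0.10, 0.22 and 0.12, with exact permutation p between 0.111 and 0.19. Ratios that share a gene, and the 3 doses that share the controls, are not independent tests.

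**Figure D4:**
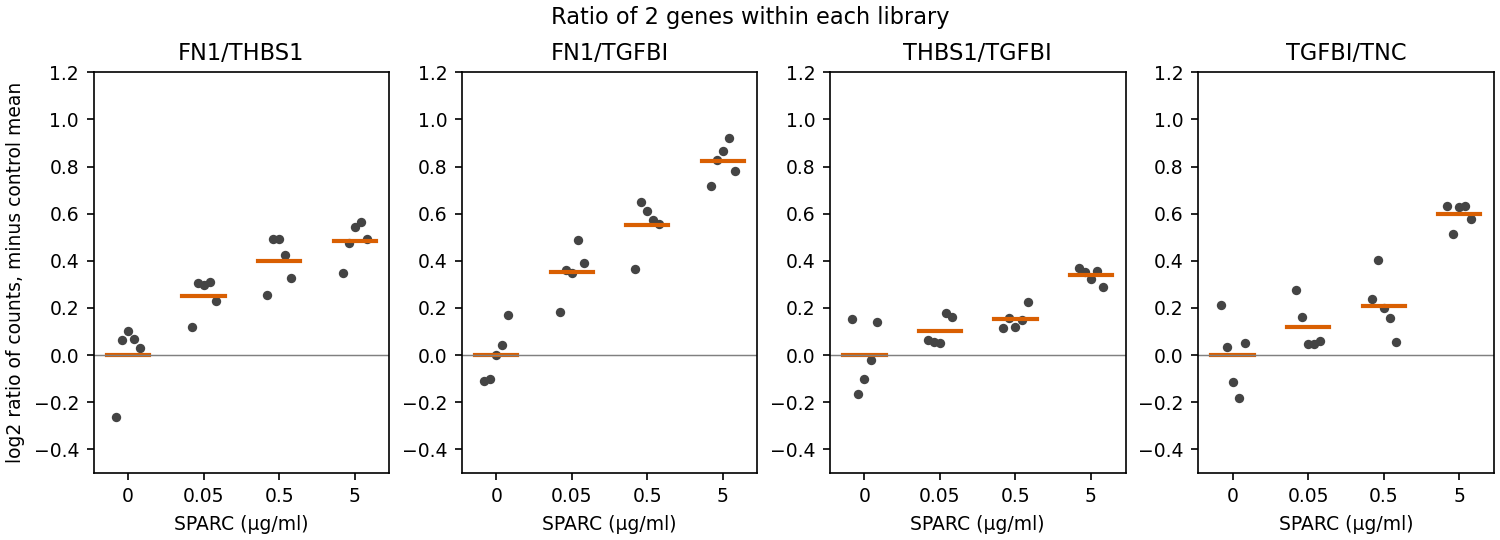
Log2 ratio of 2 matrix genes within each library (vertical axis, 1 panel per pair) by SPARC dose in µg/ml (horizontal axis), set so that the control mean is 0. Points are libraries and orange lines group means: FN1 gains on THBS1 and TGFBI at every dose, by 0.49 and 0.82 at 5 µg/ml, and the ratios of THBS1 to TGFBI and TGFBI to TNC separate from control at that dose.

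Levels can be compared between genes only per length. Per kilobase of all annotated exons, control levels were 373 ± 36.5 CPM for THBS1, 59.5 ± 1.05 for TGFBI, 39.7 ± 2.79 for FN1 and 1.34 ± 0.128 for TNC (SD, n = 5). At SPARC 5 they were 982 ± 48.1, 124 ± 4.14, 147 ± 5.33 and 1.85 ± 0.0737 in the same order of genes, so FN1 stood above TGFBI there. At SPARC 0.5 FN1 with 67.9 ± 4.12 and TGFBI with 69.4 ± 1.26 CPM per kilobase did not differ beyond their spread. Per kilobase of the longest coding transcript TGFBI stayed above FN1 at SPARC 5, with 346 ± 11.5 against 285 ± 10.4, so the order of these 2 genes depends on the length used. THBS1 was first and TNC last on both scales at every dose. Together the 4 genes took 0.464 ± 0.0372% of all counts in control and 0.508 ± 0.0181%, 0.612 ± 0.0186% and 1.23 ± 0.0418% at the rising doses, of which THBS1 alone took 0.882 ± 0.0395% at SPARC 5.

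The authors' deposited tables give similar sizes. For SPARC 0.05, SPARC 0.5 and SPARC 5 against control the authors' deposited tables list log2 fold changes of 0.37, 0.78 and 1.88 for FN1 and of 0.12, 0.38 and 1.41 for THBS1. They list 0.01, 0.22 and 1.06 for TGFBI and −0.12, −0.0031 and 0.44 for TNC in the authors' deposited tables. THBS1 at SPARC 0.05 did not pass in the authors' deposited table either, with an adjusted p of 0.0862.

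Receptors of these proteins, mostly integrins, were the next group. Of 23 receptor genes listed, 20 were tested, and at SPARC 5 12 rose, 1 fell and 7 did not pass, with a median log2 change of 0.20 against −0.01 over all genes. Over all genes tested 7.04% rose and 4.58% fell at SPARC 5, and 1.36% rose at SPARC 0.5. These shares are not matched for level, here or for the lists below, and calls were more frequent among abundant genes. ITGB6, the integrin beta chain that binds fibronectin and latent TGF-beta, rose from 53.8 ± 1.61 to 137 ± 7.14 CPM (log2 1.35 ± 0.04, adjusted p = 2.44e-52, edgeR). CALR, the chaperone calreticulin that at the cell surface binds thrombospondin, rose by 0.29 ± 0.02, and ITGA2, the collagen-binding alpha chain, by 0.37 ± 0.03 on the log2 scale. The 2 chains of the classical fibronectin receptor, ITGA5 and ITGB1, rose by 0.25 ± 0.04 and 0.21 ± 0.02 at SPARC 5. ITGB8 was the gene that fell, by 0.15 ± 0.05. ITGA5, ITGB1, ITGB8, and ITGB5 and CD44 below, were named after their values were seen. Without SPARC 5 replicates 2 and 5, 11 receptors, 7 of the assembly genes below and 6 of the protease and inhibitor genes rose. At SPARC 0.5 5 receptors rose, namely ITGB6, ITGB1, ITGB5, CD44 and CALR, by between 0.08 and 0.29, but CALR and CD44 lost that call with scaling by library size, where 3 rose. At SPARC 0.05 none passed.

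Genes that take part in fibronectin assembly or bind its fibrils were mixed. Of 25 listed 20 were tested, and at SPARC 5 8 rose, 1 fell and 11 did not pass (median log2 0.33). The shares over all genes tested were 7.04% higher and 4.58% lower at SPARC 5, and 1.36% higher at SPARC 0.5. COL12A1, a fibril-associated collagen, rose from 257 ± 12.9 to 384 ± 13.7 CPM (log2 0.58 ± 0.03, adjusted p = 3.46e-16, edgeR). The crosslinking enzyme TGM2 rose from 4.32 ± 0.677 to 8.50 ± 0.517 CPM (log2 0.98 ± 0.12), and the matricellular protein CCN1 from 171 ± 9.94 to 262 ± 10.3 CPM (log2 0.61 ± 0.05). HSPG2, which encodes the basement membrane proteoglycan perlecan, was the gene that fell, by 0.26 ± 0.06 on the log2 scale, and was named after its value was seen. COL12A1 and CCN1 were the 2 that rose at SPARC 0.5, by 0.19 ± 0.03 and 0.25 ± 0.05.

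TGF-beta ligands, receptors and feedback genes included 10 that rose and 12 that did not pass at SPARC 5 among 22 tested of 23 listed, with a median log2 change of 0.09. Among all genes tested 7.04% rose and 4.58% fell at SPARC 5, and 1.36% rose at SPARC 0.5. PMEPA1, a feedback inhibitor of TGF-beta signalling, went from 37.6 ± 2.42 to 126 ± 6.05 CPM (log2 1.74 ± 0.04, adjusted p = 4.73e-47, edgeR). LTBP2, a microfibril-associated relative of the latent TGF-beta binding proteins, rose by 0.54 ± 0.03, and the ubiquitin ligase SMURF2 by 0.32 ± 0.03. The gene of the ligand itself, TGFB1, rose by 0.21 ± 0.03 and was named after its value was seen. At SPARC 0.5 5 of these genes rose, PMEPA1 by 0.42 ± 0.05, SMURF2 by 0.19 ± 0.03, LTBP2 by 0.14 ± 0.03, SKIL by 0.18 ± 0.04 and TGFBR1 by 0.14 ± 0.04. SKIL and TGFBR1 were named after their values were seen, and TGFBR1 lost its call at SPARC 0.5 with scaling by library size, where 4 rose. With scaling by library size 8 rose and 2 fell at SPARC 5, and without SPARC 5 replicates 2 and 5 9 rose and 1 fell, TGFB2 being among those that fell in both.

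Proteases that cleave the matrix proteins, and their inhibitors, included 5 that rose, 1 that fell and 8 that did not pass at SPARC 5 among 14 tested of 20 listed (median log2 0.22). All genes tested gave shares of 7.04% higher and 4.58% lower at SPARC 5, and of 1.36% and 0.894% at SPARC 0.5. The serine protease HTRA1 rose by 0.39 ± 0.03, the membrane metalloproteinase MMP14 by 0.28 ± 0.03 and the protease inhibitor SERPINE2 by 0.85 ± 0.07. The metalloproteinase inhibitors TIMP3 and TIMP1 rose by 0.77 ± 0.17 and 0.15 ± 0.04, and tissue plasminogen activator PLAT fell by 0.36 ± 0.08. These last 3 were named after their values were seen, and TIMP1 lost its call with scaling by library size, where 4 rose. None of the 14 passed at SPARC 0.5 or SPARC 0.05, except that ADAMTS1 passed as lower at SPARC 0.5 with that scaling.

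The protein relatives of the members did not rise. Of 10 relatives, COMP, TNR, TNN and POSTN had too few counts to test, and none of the other 6 passed at SPARC 5 (median log2 −0.07). At that dose 7.04% of all genes tested rose and 4.58% fell, so 6 genes are too few to set apart from that share. Their control means were 6.89 ± 0.846 CPM for THBS3, 0.767 ± 0.180 for THBS4, 0.316 ± 0.171 for THBS2 and between 0.329 and 0.972 for TNXB, STAB1 and STAB2. Apart from THBS3 they were below 1 CPM, a level at which the SE of the log2 change at SPARC 5 was between 0.32 and 0.52, so moderate changes were not detectable. THBS3 fell by 0.40 ± 0.12 at SPARC 0.5 (adjusted p = 0.0492, edgeR) and stood at −0.13 ± 0.12 at SPARC 5 (adjusted p = 0.597). Without SPARC 5 replicates 2 and 5, 1 relative, THBS4, passed as lower at SPARC 5.

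**Figure D5:**
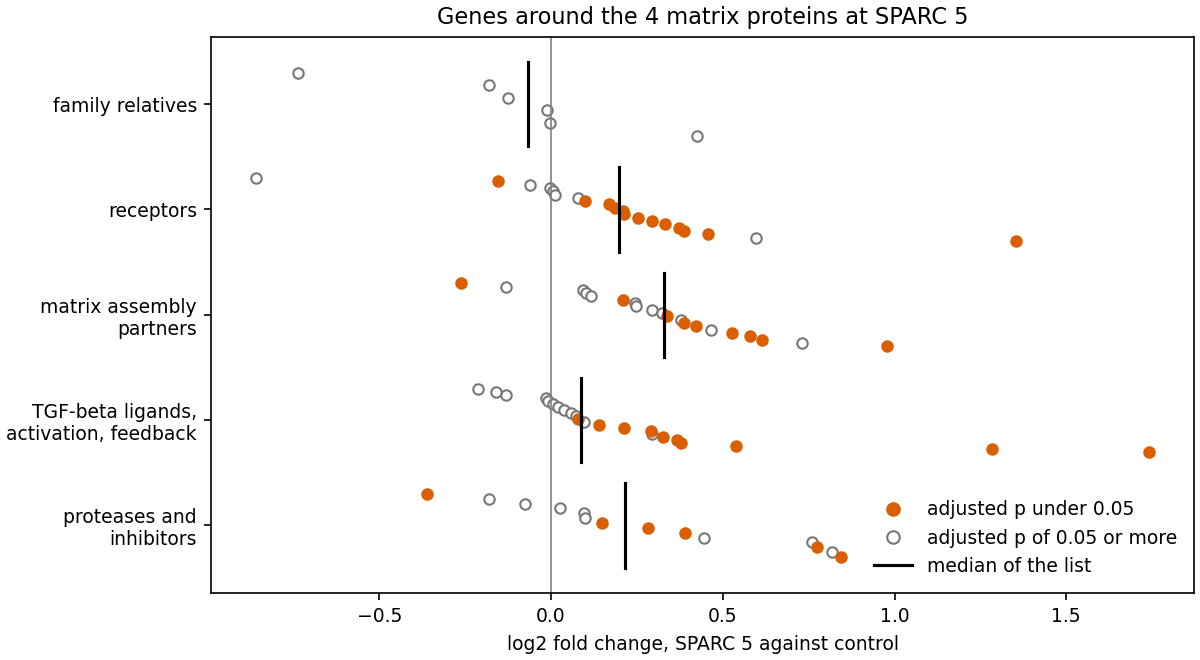
Log2 fold change at SPARC 5 against control (horizontal axis) of each tested gene in the 5 related lists (rows). Filled points passed at adjusted p under 0.05 and open points did not: 12 of 20 receptor genes rose and none of the 6 relatives passed, where 7.04% of all genes tested rose.

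Among 9624 genes with a symbol and a mean of at least 10 CPM, those with the dose profile nearest to each member were found by Euclidean distance over the 3 log2 fold changes against control, which share the control samples. FN1 lay further from its nearest gene than the other members did from theirs. By log2 change at SPARC 5 FN1 ranked 21st from the top, where few genes lie and distances can be larger. Its nearest were PMEPA1 at a distance of 0.459, the membrane adhesion protein FLRT2 at 0.514 and THBS1 at 0.683 log2 units. THBS1 lay near ITGB6 (0.0883) and AC037198.1 (0.144). TGFBI lay nearest to the kinase gene SGK1 (0.0679), the semaphorin SEMA7A (0.113) and ZBED2 (0.154), and TNC to the collagen prolyl hydroxylase P3H2 (0.0351) and the keratins KRT14 (0.0550) and KRT6A (0.0619). The limit of 10 CPM was set on a mean that includes treated samples. SEMA7A, at 8.01 CPM in control and 16.6 CPM at SPARC 5, met it only through its rise. AC037198.1 lies within the span of THBS1 on the same strand, and went from 10.9 ± 1.63 to 28.9 ± 2.13 CPM (log2 1.40 ± 0.08 at SPARC 5). Reads of AC037198.1 and of unspliced THBS1 RNA cannot be told apart there, and its counts were at most 0.341% of those of THBS1.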

How the data were processed

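Libraries of ribosome-depleted RNA from hTCEpi cells were sequenced in 20 samples. Whole read counts per Ensembl gene were deposited by the authors; per the submitters' processing notes, the tools included featureCounts 2.0.3 and STAR 2.7.9a, besides Salmon 1.5.2, limma and edgeR, on build GRCh38, and the annotation release is not given in the sources used here. The authors' deposited comparison tables hold log2 fold changes, p-values and adjusted p-values per the file headers.

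Of 60871 entries, 1 was kept per identifier where entries held equal counts. Counts were scaled to CPM with TMM factors (0.973 to 1.02), filtered with filterByExpr (minimum count 10) and tested in R 4.3.3 with edgeR 4.0.16 (robust quasi-likelihood, all 4 groups in 1 model, common coefficient of variation 6.68%). A gene rose or fell where its Benjamini-Hochberg adjusted p over 22938 genes was under 0.05. The SE is the log2 change divided by the root of F. Alternatives used library-size scaling, other filters, a replicate block, 2-group fits, limma 3.58.1 voom, DESeq2 1.42.0, left-out samples and GC and length offsets. Replicates of a dose differed by more than counting noise, with a chi-square per gene of 4.09 to 9.55 over 40 pairs. PCR copies were not marked, so counts are not separate molecules.

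The members and gene lists were chosen with earlier results of these data known. Named by rule are the members, the 3 genes nearest in dose profile to each and relatives of the members. So are the genes with the 3 smallest p at SPARC 5 in each list. Other genes of the lists, TGFB2 and ADAMTS1 included, and KRT7 and FAT2 were named after their values were seen. LTBP1 stands in 2 lists. Promoter windows are from RefSeq. Protein sequences were not analysed here, and 1 gene near THBS1 in profile is not reported here.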

Additional observations from a re-analysis of the deposited data

Results flagged for a closer look

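Each of the 16 groups of 5 values, 1 for each member and dose, was checked for a sample far from the rest, for which chance alone marks about 1 group in 20. In 2 groups the gap to the nearest sample exceeded 0.71 of the range of the group. THBS1 in SPARC 0.5 replicate 5 had 4728 CPM, with the next highest sample at 4386 CPM, a gap of 0.758 of the range. Without it the log2 change of THBS1 against control was 0.34 (adjusted p = 0.00466, edgeR), against 0.37 with it. TGFBI in SPARC 5 replicate 1 had 1027 CPM, with the next at 967 CPM, a gap of 0.755 of the range. Without it the log2 change of TGFBI was 1.04, against 1.06 with it, and it still passed.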

How the results depend on the processing

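Over 20 alternatives each, the 4 members kept their direction and call at SPARC 5 against control and against SPARC 0.5, and over 19 each FN1, THBS1 and TGFBI did so at SPARC 0.5 against control. FN1 at SPARC 0.05 lost its call with only the 2 groups fitted (log2 0.36) and with GC and length offsets (log2 0.31), but not with offsets and the replicate block together (log2 0.31, adjusted p = 0.0212). THBS1 between SPARC 0.05 and SPARC 0.5 gained a call with 2 groups (log2 0.26), voom (0.26), DESeq2 (0.27), the offsets (0.27, adjusted p = 0.0411) and the offsets with the replicate block (0.27, adjusted p = 0.0424), and missed it with 1 sample left out (0.24 to 0.28). Changes near 0 turned sign: TNC at SPARC 0.5 was −0.011 under library sizes and −0.035 to 0.062 with 1 sample left out, and TGFBI at SPARC 0.05 was −0.00040 to 0.021. The genes called at SPARC 0.05 against control, 61 in the reported fit, were 203 with DESeq2, 11 with GC and length offsets and 35 with those and the replicate block, and 22 (without SPARC 0.05 replicate 2) to 82 (without control replicate 5) with 1 sample left out. At SPARC 0.5 against control 517 became 819 with DESeq2, and 267 (without SPARC 0.5 replicate 4) to 608 with 1 sample left out. Between SPARC 0.05 and SPARC 0.5 41 became 70 without the filter, 66 with the replicate block, 80 with 2 groups, 89 with DESeq2, 77 with the offsets, 129 with these and the replicate block, and 15 (without SPARC 0.5 replicate 4) to 52 with 1 sample left out. The cause was not tested in any of these. DESeq2 gave no adjusted p for TNC at SPARC 0.05. Between samples with equal replicate numbers 0 of 30 correlations exceeded 0.1 (−0.03 to 0.04), and 7 of 20 samples correlated best with their own number. Replicate 1 had the lowest ratio of FN1 to THBS1 and of FN1 to TGFBI in every group, which did not hold for the other pairs of members. Whether replicate numbers mark paired samples was not tested, and the permutation tests took samples as unpaired. The replicate block changed no call on a member. The GC and length offsets, alone or with the block, and the fit without SPARC 5 replicates 2 and 5 were chosen after seeing the data. About 13 CPM of TNC limits its precision to an SE of 0.08, against 0.02 for TGFBI.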

Other observations

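Genes that are abundant in these cells mostly changed little at SPARC 5. Of 203 genes whose mean over the 4 groups reached 500 CPM, 61 rose and 17 fell, and the median log2 change was 0.02. Over all genes tested 7.04% rose and 4.58% fell, so calls were more frequent among these abundant genes although most changes were small. FN1, THBS1 and TGFBI were the 3 of these with a log2 change over 1, a limit chosen after the values were seen. The mean includes SPARC 5, and TGFBI, at 464 CPM in control and 467 CPM at SPARC 0.05, reached 500 CPM only through its rise. Its place among these genes is therefore not independent of its change. Among the others that rose, the keratin KRT7 went from 622 ± 39.1 to 1102 ± 18.4 CPM (log2 0.82 ± 0.03, adjusted p = 3.35e-26, edgeR), and it was named after its value was seen. No gene of the 203 fell by more than 0.20, the value of the cadherin FAT2.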
